A study of Mus musculus with 18 samples.

Results

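HOX genes encode homeodomain transcription factors and lie in 4 clusters, HOXA on chromosome 6, HOXB on chromosome 11, HOXC on chromosome 15 and HOXD on chromosome 2 of the mouse. This account follows the 36 HOX genes that the arrays measure with a probe set of their own, of 22180 genes in all, from healthy LSK cells through 5 fractions of NPM-ALK lymphoma. A gene was taken when its symbol is Hox followed by a cluster letter and a number, without antisense names, and its brightest single-symbol probe set over the 18 arrays stood for it. RefSeq lists 39 HOX genes, and 9 of 11 in HOXA, 10 of 10 in HOXB, 9 of 9 in HOXC and 8 of 9 in HOXD were measured. Hoxa11, which is read only by probe sets shared with its antisense RNA, and Hoxd4, read only by a probe set shared with Hoxd3, were not analysed here.

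RNA was measured on 18 Affymetrix arrays, 3 for each of 6 sorted populations. LSK cells, the bone marrow compartment that holds stem cells and multipotent progenitors and is sorted as lineage-negative cells with SCA1 and KIT, came from healthy wildtype mice 18 months old. The lymphoma fractions were labelled CLP (common lymphoid progenitor), DN1, DN2, DN3 and DN4 (CD4 and CD8 double-negative stages), and came from thymic lymphomas of moribund mice with the Lck-Cre transgene. Those hosts had been sublethally irradiated, which leaves some cells of their own, and had received bone marrow infected with a retrovirus for NPM-ALK, a kinase fusion found in anaplastic large cell lymphoma. Lck drives Cre in early T cells, so the oncogene was meant to be expressed in that lineage. The design text names 3 lymphomas, and nothing ties an array to an animal, so p values measure the spread between these samples, which may be partly technical. The description fields name NIPA knockout or wild-type mice, some irradiated, which conflicts with the titles and genotype fields, and the titles were followed. Those description fields give a dose of 4 Gy for LSK array 3, CLP arrays 1 and 2 and all DN1, DN2 and DN3 arrays. For LSK arrays 1 and 2, CLP array 3 and the DN4 arrays they give no dose.

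Along each cluster the order of the genes matches the order of their use along the body axis, and paralog groups with the same number share ancestry across clusters. In blood formation the HOXA and HOXB genes are most active in stem and early progenitor cells and are shut down as cells mature, with MLL complexes keeping the loci active and Polycomb complexes keeping them silent. HOX proteins bind DNA together with cofactors of the TALE class, the PBX, MEIS and PKNOX proteins, and HOXA9 with MEIS1 is a known driver of leukaemia.

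The values are log2 RMA signals, and they rise with the amount of transcript on a scale that differs between probe sets, so no gene's level is set against another gene's. A gene counts as above background in a group when its signal on all 3 arrays exceeds the 95th percentile of that array's 1091 probe sets for olfactory receptors. That threshold lay between 5.35 and 5.70 over the 18 arrays, at 5.35 to 5.51 on the LSK arrays and at 5.42 to 5.70 on the lymphoma arrays. The LSK arrays had 5 of 5 measured LSK markers above background, and their mean was 9.38 to 9.53, against 5.57 to 6.38 in the lymphoma fractions. Of these markers Kit alone stayed above background in every fraction, with means of 10.77 in DN1 and 10.68 in DN2 against 10.90 in LSK. Kit was further below the LSK level in CLP (9.43), DN3 (8.06) and DN4 (8.20). Il2ra, which encodes the CD25 used in the sort, averaged 11.81 in DN2 and 12.02 in DN3 and 8.31 to 9.04 in the other fractions, while Il7r, a defining CLP marker, was lower in CLP (mean 7.99, SD 0.899) than in DN1 to DN4 (means 8.51 to 9.75), against what the label leads to. The 5 measured T lineage markers were at a mean of 5.21 to 5.32 in LSK and 10.28 to 11.40 in every lymphoma fraction, CLP included. Granulocyte genes (6 measured) were at 8.17 to 9.10 in LSK and 4.76 to 5.57 in the fractions, and all 6 were lower in the lymphoma. Of the 4 granule enzyme genes among them, Mpo was above background in no fraction, while Prtn3 stayed above it in all 5, Elane in DN2 and DN4, and Ctsg in DN1 and DN2. Erythroid and megakaryocyte genes (3 measured) were at 7.02 to 7.42 in LSK against 5.07 to 5.57, and macrophage genes (5 measured) at 6.94 to 7.01 against 5.66 to 6.24. The macrophage genes moved apart, with Csf1r, Adgre1 and Lyz2 lower in the lymphoma and Cd68 (0.61) and C1qa (0.38) higher. Stroma and thymic epithelium genes (9 measured) were at 5.05 to 5.11 in LSK and 5.03 to 5.35 in the fractions, with Col1a2 higher by 1.06 and Epcam lower (-0.70), and B cell genes (4 measured) at 5.07 to 5.80 against 4.73 to 5.24. The part of any of these lists in the HOX differences was not tested. Xist was at 3.55, 10.74 and 10.00 and the Y-linked Eif2s3y at 8.42, 7.43 and 4.69 on LSK arrays 1, 2 and 3, while all 15 lymphoma arrays had Xist at 3.81 to 5.03 and Eif2s3y at 8.62 to 9.44. The groups thus differ in these sex-linked genes, and the part of that difference in the HOX values was not tested either.

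The regions just before the start sites of 3 of the genes that fell in every lymphoma fraction are shown here, to set the sequence context of the largest falls side by side. By fitted difference, Hoxa9 fell the most, Hoxa5 the second most of the HOXA genes and Hoxb4 the most of the HOXB genes. Each run is the 250 bases before the annotated start, read 5′ to 3′ on the strand of the gene, from RefSeq on GRCm38.p6, with CG dinucleotides, the sites of DNA methylation, in capitals. The Hoxa9 window is chr6:52227371-52227620 on the minus strand, the Hoxa5 window chr6:52204588-52204837 on the minus strand, and the Hoxb4 window chr11:96318017-96318266 on the plus strand.
Hoxa9: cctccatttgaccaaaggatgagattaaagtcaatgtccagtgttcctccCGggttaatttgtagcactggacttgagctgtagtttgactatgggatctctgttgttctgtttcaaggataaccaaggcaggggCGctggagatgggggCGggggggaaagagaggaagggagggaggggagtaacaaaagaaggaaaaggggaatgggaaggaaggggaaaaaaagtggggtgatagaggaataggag
Hoxa5: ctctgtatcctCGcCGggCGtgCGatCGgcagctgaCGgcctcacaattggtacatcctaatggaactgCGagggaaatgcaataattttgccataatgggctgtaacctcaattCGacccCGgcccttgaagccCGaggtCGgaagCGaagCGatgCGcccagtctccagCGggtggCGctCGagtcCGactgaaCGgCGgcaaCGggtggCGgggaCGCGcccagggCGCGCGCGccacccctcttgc
Hoxb4: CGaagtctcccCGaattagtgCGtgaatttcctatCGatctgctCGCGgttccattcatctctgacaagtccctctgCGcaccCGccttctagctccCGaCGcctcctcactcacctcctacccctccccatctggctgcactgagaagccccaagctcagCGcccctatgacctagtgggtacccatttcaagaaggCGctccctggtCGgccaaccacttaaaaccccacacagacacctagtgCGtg

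These 3 windows differ widely in CG content. The Hoxa9 window holds 3 CG dinucleotides, the Hoxb4 window 14 and the Hoxa5 window 28, against a median of 6 and quartiles of 2 and 16 over 32851 RefSeq windows of the same length. RefSeq windows were found for 20 of the 36 genes (22 windows) and for 5 of the 7 genes called lower in every fraction, which also include Hoxa6 with 24 CG dinucleotides and Hoxa7 with 7. The median over those 5 windows is 14, and over the other 17 HOX windows it is 12 (range 2 to 35), with overlapping ranges. The letters CCAAT, searched on both strands, occur in 13 of 22 HOX windows, the Hoxa5 and Hoxa6 windows among them, and in 33.8% of all windows. TTTATG, a sequence bound by CDX proteins, occurs in 4 of 22, with 2 matches before Hoxa7, against 10.8% of all windows. TATAAA was found in 3 of 22 (12.4% of all) and CACGTG in 4 of 22 (6.02% of all), and no match of one motif overlapped a match of another in a HOX window. None of these motifs was found in the Hoxa9 or Hoxb4 windows.

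By the olfactory receptor threshold, HOX expression was sparse on these arrays and was widest in LSK cells. In LSK, 9 of 36 HOX genes (25%) were above background, namely Hoxa3, Hoxa4, Hoxa6, Hoxa9, Hoxb3, Hoxb4, Hoxb5, Hoxb9 and Hoxd8, where 52.7% of all genes were. In the lymphoma the number was 2 in CLP (Hoxb5 and Hoxb9), 0 in DN1, 4 in DN2 (Hoxa4, Hoxa6, Hoxb9 and Hoxd8), 1 in DN3 (Hoxd8) and 3 in DN4 (Hoxa4, Hoxb9 and Hoxd8). The share of all genes above background stayed between 46.5% and 51% in those fractions. Some counts turn on the threshold, which was lower on the LSK arrays than on most lymphoma arrays. Hoxd8 averaged 5.76 in LSK and 5.80 in CLP, where array 1 at 5.56 missed its threshold of 5.68. No HOX gene was above background in a lymphoma fraction without also being so in LSK. Hoxb5 counts in CLP on the brighter of its probe sets alone. Hoxa5, Hoxa7 and Hoxb6 passed on 2 of the 3 LSK arrays and on 0 of the 15 lymphoma arrays, and 23 genes, all 9 HOXC genes among them, passed on 0 of the 18 arrays. With the 99th percentile as the threshold, Hoxa9 and Hoxb4 alone were above background in LSK and 0 HOX genes were in each lymphoma fraction. In bulk RNA, fewer cells that carry a transcript and less transcript per cell cannot be told apart.

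**Figure D1:**
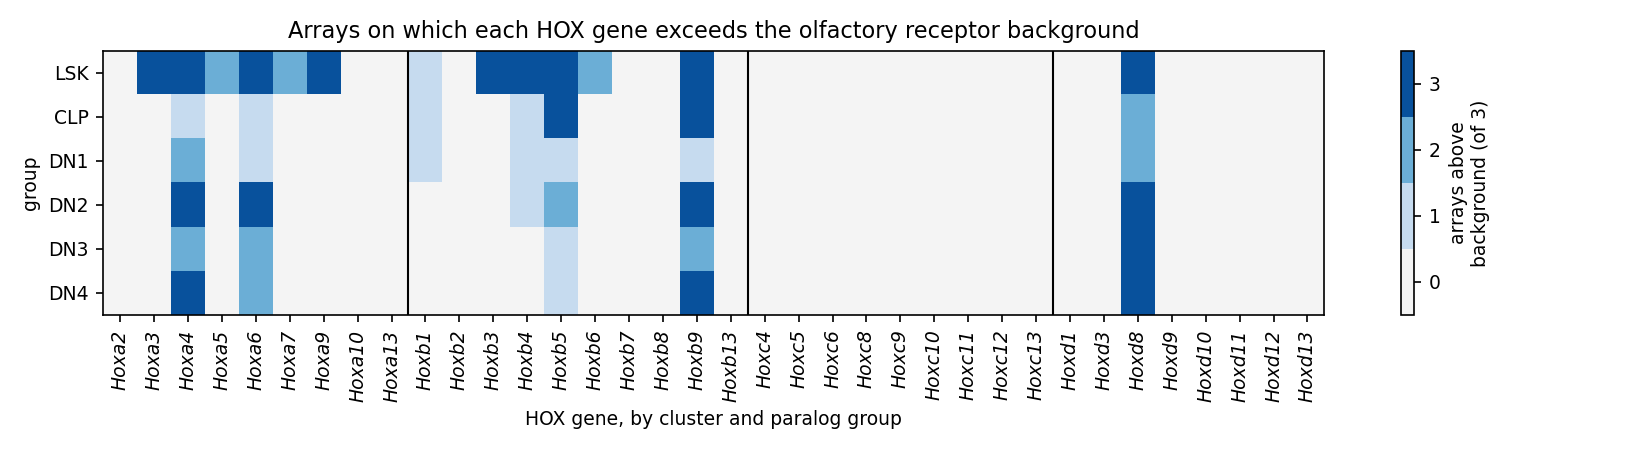
Number of arrays, of 3 in each group (rows), on which each of the 36 HOX genes (columns, by cluster and paralog number) exceeded the background threshold. The LSK row has 9 genes with all 3 arrays above, all in HOXA, HOXB or Hoxd8, and the HOXC block is empty in every group.

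The first comparison asked which HOX genes differ between the lymphoma as a whole and the healthy LSK cells. No healthy CLP or DN cells were measured. Disease, T lineage and tissue thus differ together in every comparison with LSK, and their parts cannot be told apart. For each replicate number the 5 fraction arrays were averaged, and the 3 means were set against the 3 LSK arrays with limma, with p values adjusted by Benjamini-Hochberg over all 22180 genes. At an adjusted p under 0.05, 10 of 36 HOX genes (27.8%) were lower in the lymphoma, where 15.8% of all genes were, and 2 were higher, where 13.1% of all genes were. The falls lay in HOXA (7 of 9 genes) and HOXB (3 of 10). The rises were Hoxa13 and Hoxc12, both under background on all 18 arrays. The median difference was -0.57 in HOXA, -0.26 in HOXB, 0.15 in HOXC and 0.01 in HOXD, against 0.05 over all genes. Over all 36 genes it was -0.08, with 23 of them under background on every array.

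Hoxa9, a factor that sustains stem and progenitor cell growth, showed the largest HOX difference. Its log2 signal was 7.98, 8.19 and 7.79 on the LSK arrays and had a lowest, median and highest value of 4.35, 4.70 and 5.11 on the 15 lymphoma arrays. All lymphoma arrays lay below background and far from the LSK arrays. Hoxa9 fell by 3.35 on the log2 scale (SE 0.116, adjusted p = 4.49e-08 by limma). Since its lymphoma level lies under background, the size is given as a bound: taken against the higher of each array's threshold and its own signal, Hoxa9 was at least 5.38-fold lower in the lymphoma. The other folds given as "at least" were computed in the same way.

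Hoxa5 and Hoxa7, from the middle of the cluster, were also lower with no overlap. Hoxa5 was at 5.56, 5.63 and 5.47 in LSK and at 3.60, 3.77 and 4.14 (lowest, median, highest) in the lymphoma, and fell by 1.74 (SE 0.096, adjusted p = 7.9e-07 by limma). Hoxa7 was at 5.74, 5.32 and 5.85 in LSK and at 4.42, 4.62 and 4.82 in the lymphoma, and fell by 1.02 (SE 0.139, adjusted p = 0.000394). Both genes sit at the edge of background in LSK, so no fold is given. Another probe set, shared by Hoxa7 and the noncoding RNA Mira and left out of the gene tests, was well above background in LSK (8.19, 7.59 and 8.35) and fell by 3.39, and which of these transcripts it reads was not tested.

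Hoxa6, which lies between them, was at 6.91, 7.30 and 6.11 in LSK and at 5.32, 5.59 and 5.88 in the lymphoma. LSK array 3 was the lowest of the LSK arrays and still lay above all lymphoma arrays, 9 of which were above background. Hoxa6 fell by 1.18 (SE 0.247, adjusted p = 0.00551 by limma), a fold of at least 2.21. Hoxa3 was at 5.55, 5.78 and 5.65 in LSK against 4.90, 5.12 and 5.56 in the lymphoma, where CLP array 2 reached into the LSK range, and fell by 0.54 (SE 0.10, adjusted p = 0.00277). In the RefSeq annotation the Hoxa3 gene spans Hoxa4, Hoxa5 and Hoxa6, so signals of these genes may not be fully separate.

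Hoxa2 and Hoxa10 fell by less and were under background on every array, so their calls describe faint signals. Hoxa2, a hindbrain patterning gene, was at 4.71, 4.77 and 4.89 in LSK against 3.94, 4.22 and 4.71 in the lymphoma and fell by 0.57 (SE 0.097, adjusted p = 0.00157 by limma). Hoxa10, a regulator of myeloid and stem cell expansion, was at 4.65, 4.68 and 4.87 in LSK against 4.04, 4.29 and 4.54, and fell by 0.43 (SE 0.10, adjusted p = 0.00975). Hoxa13, best known from limb development, was at 4.12, 4.30 and 4.37 in LSK, overlapped the lymphoma arrays and was 0.32 higher there (SE 0.103, adjusted p = 0.0463). Its call was lost without LSK replicate 1 (adjusted p = 0.12), without LSK replicate 2 (0.0653) and without each of the 3 lymphoma replicates in turn (0.0922 to 0.177). Hoxa4 was above background in LSK (6.24, 5.68 and 6.13), in DN2 and in DN4, and its difference of -0.31 (95% interval -0.65 to 0.02) did not pass the test (adjusted p = 0.148 by limma). Without LSK replicate 2 it did (adjusted p = 0.0127).

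**Figure D2:**
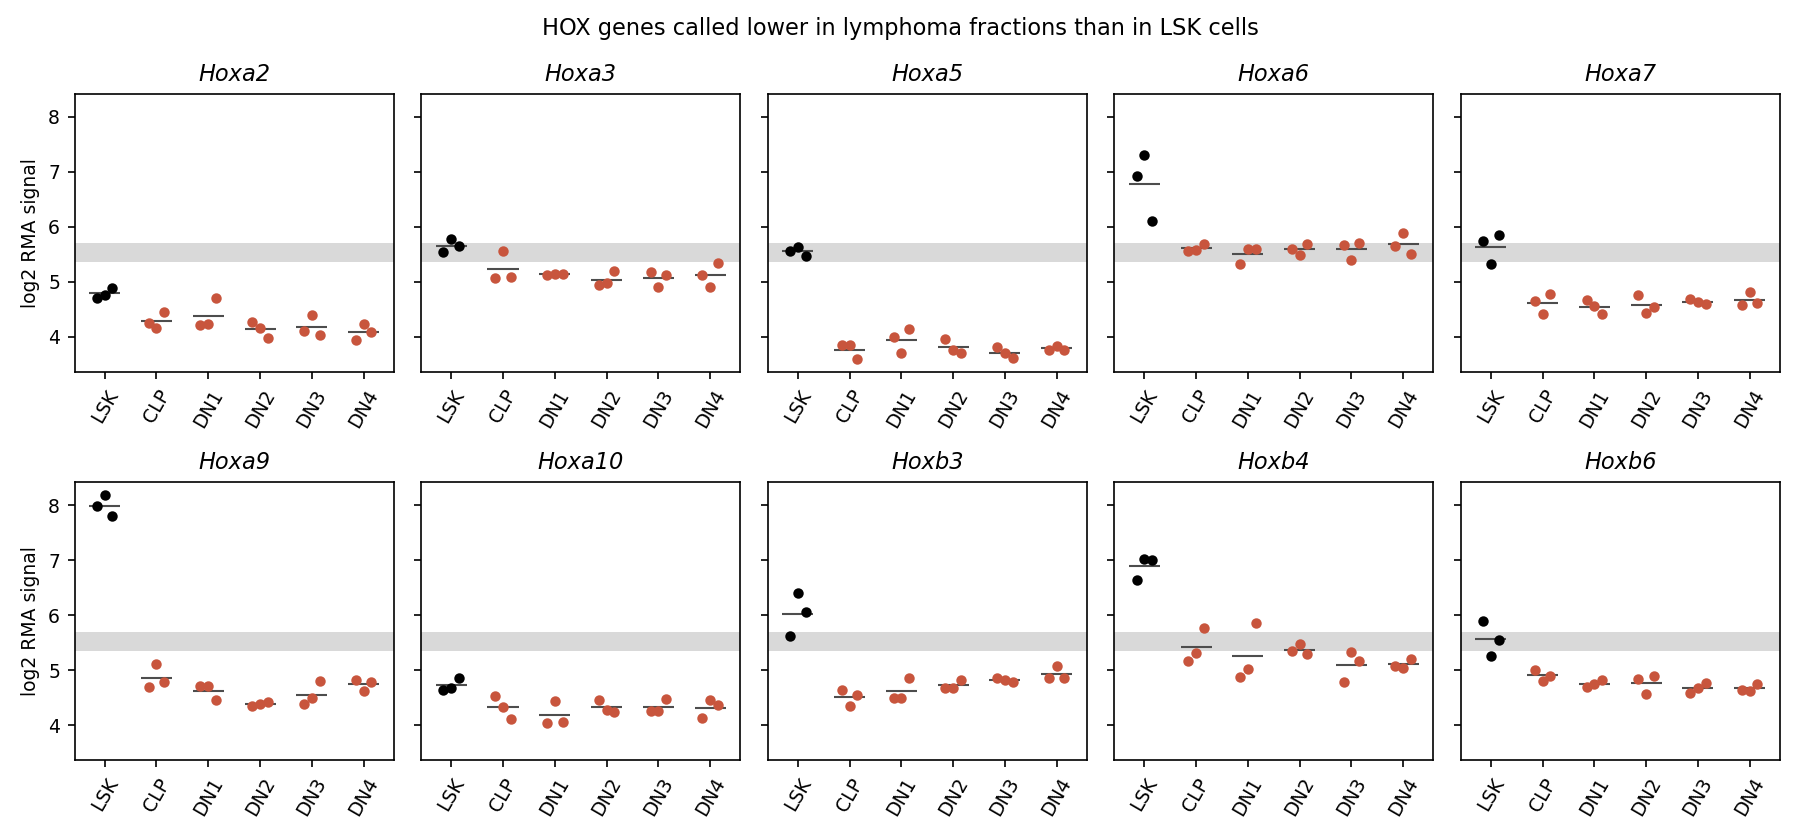
Log2 RMA signal (vertical axis) of the 10 HOX genes called lower in the lymphoma, 1 point per array, in LSK (black) and the 5 lymphoma fractions (red), with group means as lines and the range of the background threshold over arrays (5.35 to 5.70) in grey. Hoxa9 stands at 7.79 to 8.19 in LSK and at 4.35 to 5.11 in the lymphoma, while Hoxa2 and Hoxa10 lie under the grey band in every group.

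In HOXB the falls lay in the stretch from Hoxb3 to Hoxb6. Hoxb4, which promotes self-renewal of stem cells when overexpressed, was at 6.65, 7.02 and 7.0 in LSK and at 4.80, 5.21 and 5.87 (lowest, median, highest) in the lymphoma. The groups did not overlap, though 3 of 15 lymphoma arrays, 1 each in CLP, DN1 and DN2, were above background. Hoxb4 fell by 1.64 (SE 0.141, adjusted p = 1.75e-05 by limma), at least 2.47-fold.

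Hoxb3, the neighbour whose gene span contains Hoxb4, was at 5.63, 6.41 and 6.06 in LSK and at 4.36, 4.79 and 5.08 in the lymphoma, and fell by 1.30 (SE 0.173, adjusted p = 0.000345 by limma), at least 1.39-fold. Hoxb6 was at 5.89, 5.26 and 5.55 in LSK and at 4.56, 4.75 and 5.01 in the lymphoma, and fell by 0.81 (SE 0.150, adjusted p = 0.00273). Neither gene's arrays overlapped between LSK and lymphoma, and neither was above background on any lymphoma array. A probe set shared by Mir10a and Hoxb4 was under background everywhere and was also lower in the lymphoma, by -0.96 (adjusted p = 0.0089 by limma over all probe sets).

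The other HOXB genes above background in LSK, Hoxb5 and Hoxb9, were not called over the lymphoma as a whole. Hoxb5 was at 5.83, 5.82 and 5.77 in LSK, and its mean was 5.83 for CLP (SD 0.142), 5.38 for DN1 (SD 0.172), 5.52 for DN2 (SD 0.045), 5.54 for DN3 (SD 0.234) and 5.44 for DN4 (SD 0.329). On this brighter of its probe sets CLP thus lay at the LSK level, a difference of 0.02. DN1 to DN4 lay below it, by -0.43, -0.28, -0.27 and -0.37. The difference of Hoxb5 over all fractions was -0.27 (95% interval -0.48 to -0.05, adjusted p = 0.0658 by limma), and with CLP left out of the mean it was -0.34 and passed (adjusted p = 0.0245). Against DN1 alone (adjusted p = 0.0562) it passed without DN1 replicate 2 (0.0423), and also under both filters on low signals, quantile normalization and the mean of its probe sets (0.0383 to 0.0446), and against DN4 alone (0.116) without DN4 replicate 2 (0.0191). The second Hoxb5 probe set gave a like difference of -0.28 over all fractions. On it CLP differed from LSK by -0.13, and DN1 to DN4 by -0.49, -0.23, -0.32 and -0.21. It was above background on 1 of 3 CLP arrays, so the CLP level of Hoxb5 rests on the brighter probe set. Hoxb9 was at 5.84, 5.85 and 6.32 in LSK, was above background in CLP, DN2 and DN4, and differed by -0.34 (95% interval -0.66 to -0.02, adjusted p = 0.105). Both intervals, which are not adjusted for the number of genes, lie wholly on the side of a fall. Neither gene passed after adjustment over all genes, and these values do not show that the genes were equal. Hoxb2 was under background throughout and differed by -0.26 (adjusted p = 0.0722).

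HOXC and HOXD contributed no fall. Hoxd8 was the single gene of both clusters above background in LSK (5.81, 5.54 and 5.92), and it was also above on 13 of 15 lymphoma arrays. Its difference was -0.02 (95% interval -0.31 to 0.26, adjusted p = 0.906 by limma), and its sign turned when single replicates were left out. Hoxc12 was at 4.27, 4.31 and 4.44 in LSK, overlapped the lymphoma arrays and was 0.29 higher there (SE 0.097, adjusted p = 0.0491). Its call was lost without LSK replicate 1 (adjusted p = 0.112), without LSK replicate 2 (0.0919) and without each lymphoma replicate in turn (0.0976 to 0.179). The remaining 19 genes were neither above background in a group nor called: Hoxb1, Hoxb7, Hoxb8, Hoxb13, Hoxc4, Hoxc5, Hoxc6, Hoxc8, Hoxc9, Hoxc10, Hoxc11, Hoxc13, Hoxd1, Hoxd3, Hoxd9, Hoxd10, Hoxd11, Hoxd12 and Hoxd13. Their array values ran from 3.34 to 6.01, their differences from -0.21 to 0.27, and their smallest adjusted p was 0.0942. At signals under background these values say little about such genes.

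**Figure D3:**
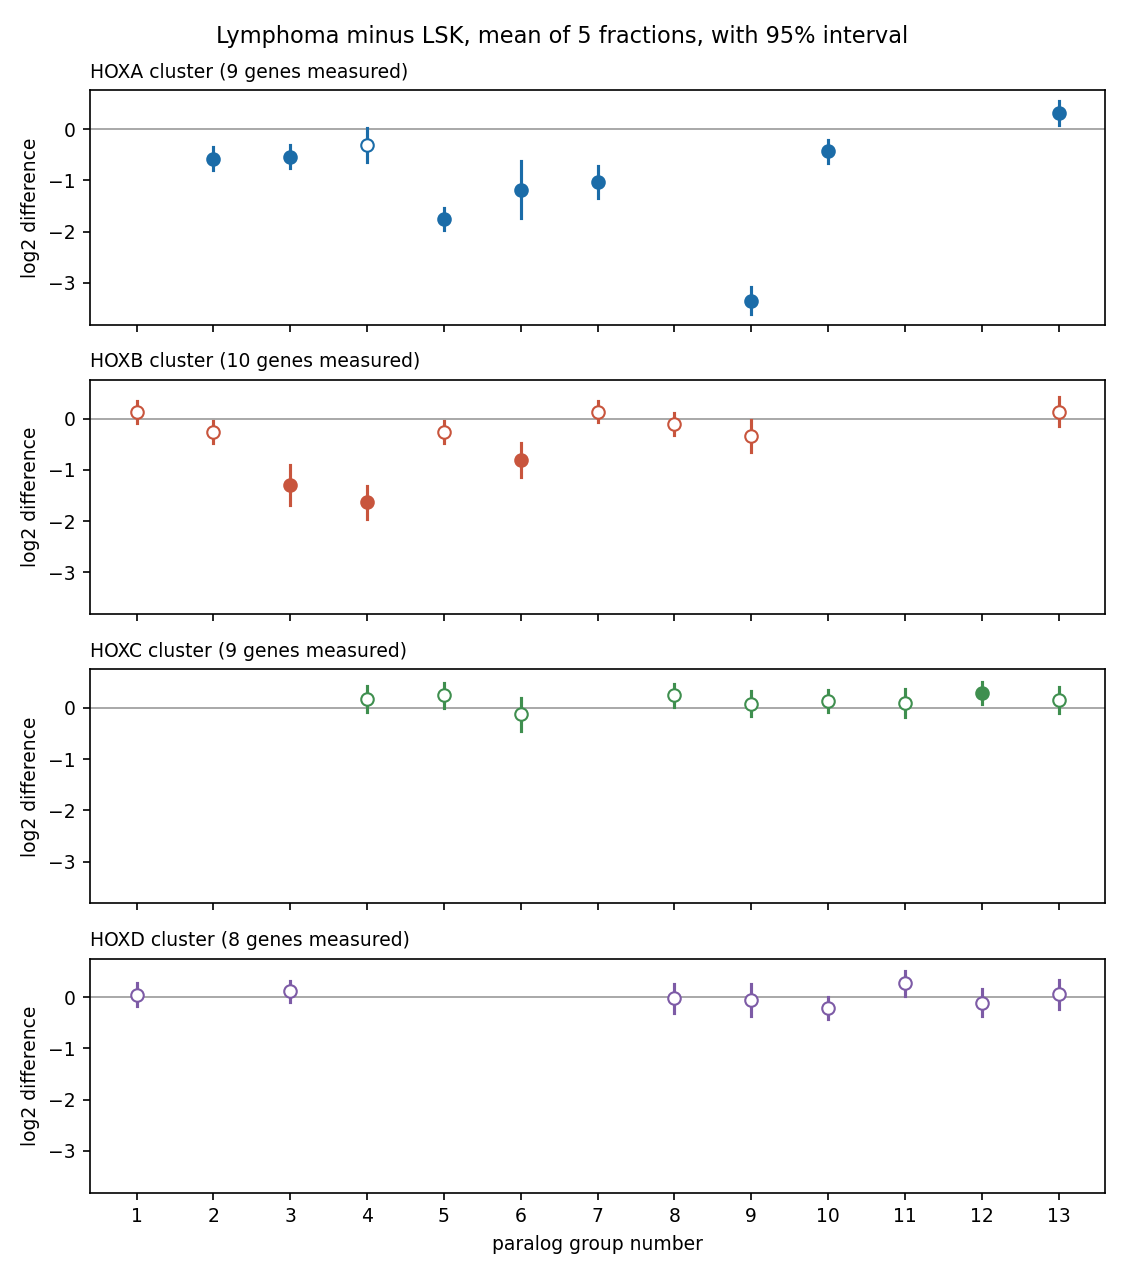
Log2 difference, lymphoma (mean of 5 fractions) minus LSK, for each measured HOX gene by paralog group number (horizontal axis), 1 panel per cluster, with 95% intervals and filled points for adjusted p under 0.05. The falls reach -3.35 at paralog 9 of HOXA and -1.64 at paralog 4 of HOXB, and the HOXC and HOXD points lie between -0.21 and 0.29.

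By position, 3 of 7 genes of paralog groups 1 to 3 fell (median -0.26), 5 of 14 of groups 4 to 8 (median -0.20) and 2 of 15 of groups 9 to 13 (median 0.08), and the 2 rises were also in groups 9 to 13. Over all genes 15.8% were called lower and 13.1% higher, and groups 9 to 13, with 2 of 15 each way, lie near these shares. Within a paralog group the fitted differences varied between clusters. In group 9, Hoxa9 fell by 3.35 while Hoxb9, Hoxc9 and Hoxd9 differed by -0.34, 0.08 and -0.05. In group 4, Hoxb4 fell by 1.64 while Hoxa4 and Hoxc4 differed by -0.31 and 0.18, and in group 5 Hoxa5 fell by 1.74 while Hoxb5 and Hoxc5 differed by -0.27 and 0.25. Group 6 had falls in both clusters, Hoxa6 and Hoxb6, and group 3 likewise with Hoxa3 and Hoxb3. Of these paralogs, Hoxc4, Hoxc5, Hoxc9 and Hoxd9 were under background on every array. Their small differences thus do not show that they behaved otherwise than the genes that fell. Differences between paralogs were not tested, as each is read by its own probe set. Comparing single arrays, all 15 lymphoma arrays lay below all 3 LSK arrays for 9 of 36 HOX genes, where this held for 10.4% of all genes, and above them for 0, where it held for 6.28%.

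The falls were present in each fraction, which were set against the same 3 LSK arrays and are therefore not independent of each other. The count of HOX genes called lower was 7 in CLP, 10 each in DN1, DN2 and DN3, and 11 in DN4, where (in the order CLP to DN4) 11.2%, 12.3%, 14%, 13.1% and 14.9% of all genes were called lower. The count called higher by limma was 0 in each, where 6.54%, 7.45%, 11.4%, 11.4% and 11.8% of all genes were. At an unadjusted p under 0.05 in either direction, 13, 15, 14, 14 and 16 HOX genes passed, and 30.2%, 30.4%, 35%, 34.5% and 37.3% of all genes did. The 7 genes lower in every fraction were Hoxa5, Hoxa6, Hoxa7, Hoxa9, Hoxb3, Hoxb4 and Hoxb6.

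Over 3 arrays each, Hoxa9 averaged 4.87 (SD 0.214) for CLP, 4.63 (SD 0.148) for DN1, 4.39 (SD 0.041) for DN2, 4.56 (SD 0.216) for DN3 and 4.75 (SD 0.114) for DN4, all under background. Its difference from LSK ran from -3.60 in DN2 to -3.12 in CLP. Hoxb4 averaged 5.42 (SD 0.307) for CLP, 5.26 (SD 0.534) for DN1, 5.38 (SD 0.097) for DN2, 5.10 (SD 0.276) for DN3 and 5.11 (SD 0.091) for DN4. The spread in DN1 was wide, with arrays at 4.88, 5.02 and 5.87. The difference of Hoxb3 ran from -1.51 in CLP to -1.10 in DN4, that of Hoxa5 from -1.83 to -1.60, that of Hoxa6 from -1.27 to -1.09, that of Hoxa7 from -1.09 to -0.96 and that of Hoxb6 from -0.89 to -0.66. Hoxa5, Hoxa7, Hoxa9, Hoxb3 and Hoxb6 were under background on all 15 lymphoma arrays, so like differences in each fraction do not show that their levels were alike there.

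Outside this set the calls were less even. Hoxa3 was called in 4 fractions and Hoxa10 in 4, CLP being the exception for both, and Hoxa2 in 3 (DN2, DN3 and DN4). Hoxb2 was called in DN4 alone (-0.37, adjusted p = 0.0359 by limma) and Hoxb9 in DN1 alone (-0.67, adjusted p = 0.0305). Leaving out single arrays ended some of these calls. In CLP, Hoxa6 was lost without LSK replicate 1 (adjusted p = 0.0808), LSK replicate 2 (0.063) or CLP replicate 2 (0.0551), and Hoxb6 without LSK replicate 1 (0.152), LSK replicate 3 (0.109), CLP replicate 2 (0.101) or CLP replicate 3 (0.0765). In DN1, Hoxa3 was lost without LSK replicate 2 (0.0774) or DN1 replicate 1 (0.0508), and Hoxb9 without LSK replicate 2 (0.0512), LSK replicate 3 (0.111), DN1 replicate 1 (0.0986) or DN1 replicate 3 (0.0879). In DN4, Hoxa3 was lost without LSK replicate 2 (0.0547) or DN4 replicate 2 (0.0714), and Hoxb2 without each of the 6 arrays in turn (0.0649 to 0.0939). The Hoxa10 calls were lost in DN1 without LSK replicates 1, 2 or 3 or DN1 replicates 1 or 3, in DN2 without LSK replicates 2 or 3 or DN2 replicates 2 or 3, in DN3 without LSK replicates 1, 2 or 3 or DN3 replicates 1 or 2, and in DN4 without LSK replicates 1, 2 or 3 or DN4 replicates 1 or 3. Hoxa5, Hoxa7, Hoxa9, Hoxb3 and Hoxb4 kept their calls in each fraction under every alternative that tested them.

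**Figure D4:**
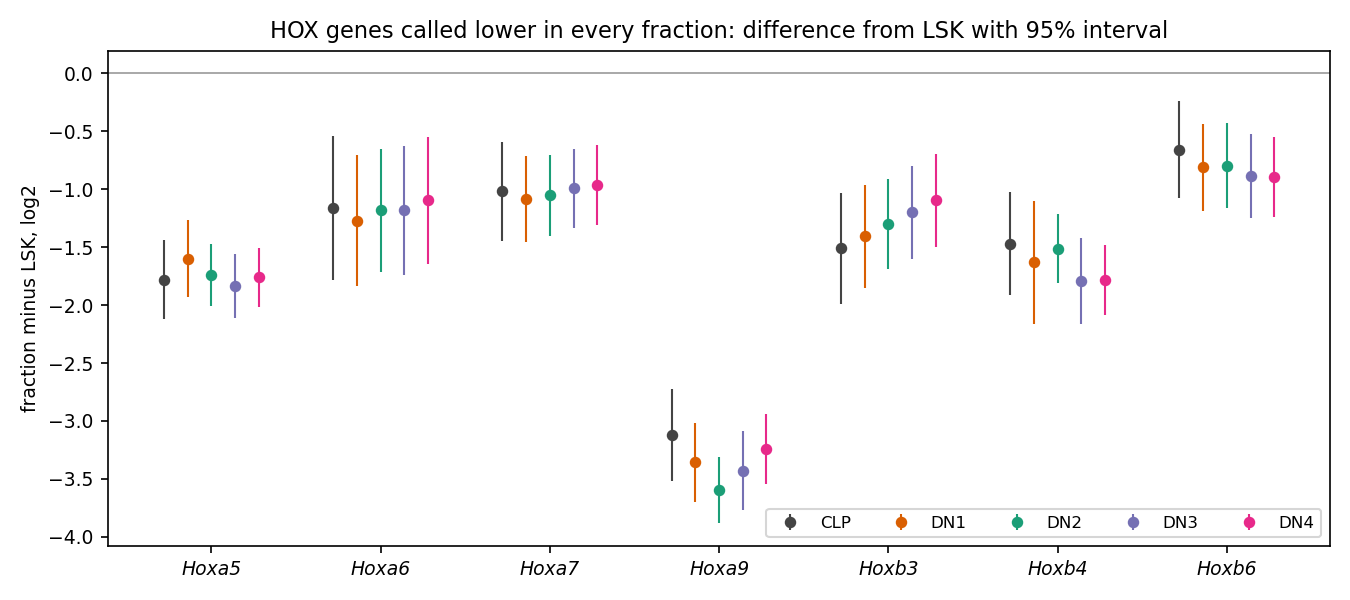
Log2 difference of each lymphoma fraction (colours) from LSK, with 95% intervals, for the 7 HOX genes called lower in all 5 fractions. Hoxa9 lies between -3.60 and -3.12, and for every gene the intervals of the 5 fractions overlap one another.

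Within the lymphoma no HOX gene was called between fractions. An F test over the 15 lymphoma arrays called 0 HOX genes with limma, where 7.88% of all genes were called. At an unadjusted p under 0.05 there were 3 (Hoxa9, Hoxb9 and Hoxc5), and the smallest adjusted p was 0.211, for Hoxb9. Without CLP replicate 3 the test called Hoxc5. The steps from DN1 to DN2, DN2 to DN3 and DN3 to DN4 called 0 HOX genes each by limma, where 1.35%, 2.45% and 0.00451% of all genes were called in either direction, and 0 HOX genes had an unadjusted p under 0.05 in any of them.

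Between CLP and DN1, where 7.78% of all genes were called in either direction, 0 HOX genes passed in limma and 3 (Hoxb5, Hoxb9 and Hoxc5) had an unadjusted p under 0.05. Hoxb9 came closest, with 5.80, 5.87 and 5.96 in CLP and 5.21, 5.67 and 5.10 in DN1, a difference of -0.55 (SE 0.166, adjusted p = 0.0516). The groups did not overlap, and DN1 array 2 lay near the CLP arrays. Hoxb5 was at 5.79, 5.98 and 5.71 in CLP and at 5.34, 5.57 and 5.23 in DN1, a difference of -0.45 (SE 0.168, adjusted p = 0.125). The Hoxb9 call depends on the setting: it passed under 5 other settings of the fit and without CLP replicate 1 or DN1 replicate 2. Without CLP replicate 1 Hoxd9 passed as well, and without CLP replicate 3 Hoxc5 passed and Hoxb9 did not.

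Among the HOX cofactors, Meis1, the partner of HOXA9, fell. It was at 10.12, 10.62 and 10.36 in LSK and at 4.21 to 5.14 over the lymphoma arrays, under background on all 15, and fell by 5.90 (SE 0.133, adjusted p = 4.2e-09 by limma), at least 28-fold. Of 8 measured TALE class genes it was the single fall, where 15.8% of all genes were called lower, and Meis3 the single rise, where 13.1% were called higher (0.43, adjusted p = 0.0337, lost without LSK replicate 1 or any 1 lymphoma replicate). Pbx2, Pbx3, Pbx4, Pknox1, Pknox2 and Meis2 were not called, and the median over the list was 0.04 against 0.05 over all genes. Pbx3, a partner of HOXA9 in leukaemia that was named after its values were seen, was at a mean of 7.11 in LSK and 6.76 in the lymphoma (-0.35, adjusted p = 0.0943).

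Genes reported as direct targets of HOXA9 and MEIS1 moved both ways. Of 14 measured, 7 fell and 4 rose, where 29% of all genes were called in either direction, and the list median was -0.37. The list includes Meis1 itself and genes that also mark LSK cells. The falls with the smallest p were Cd34 (-5.95, adjusted p = 2.23e-09 by limma), a progenitor surface sialomucin, Meis1, the stem cell factor Erg (-4.13, adjusted p = 1.04e-08) and the cytokine receptor Flt3 (-4.13, adjusted p = 1.37e-07). The rises, named after their values were seen, were the kinase genes Camk2d (1.20) and Cdk6 (0.92), the inhibitor of E proteins Id2 (1.09) and the transcription factor Sox4 (0.54). In DN1 Sox4 averaged 8.89, close to its 8.82 in LSK, and in the other fractions 9.34 to 9.63. Myb and Bcl2 were not called.

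The genes on the flanks of the clusters, with at most 4 protein-coding genes between, did not move as a block with the clusters. Of 16 measured neighbours, 6 fell and 3 rose, where 15.8% and 13.1% of all genes did, with a median of 0.01. Among the falls, Ube2z lost its call in 8 of 19 alternatives and Copz1 in 1 of 19, while Calcoco1, beside Hoxc13, kept its call in all 19. These genes were named after their values were seen. Skap2, a SRC kinase adaptor whose gene flanks the HOXA cluster in RefSeq, was at 9.41, 9.33 and 9.22 in LSK. In the lymphoma it was above background in DN1 (mean 6.08, SD 0.209) and DN2 (mean 5.89, SD 0.298) and below it in CLP, DN3 and DN4, and it fell by 4.14 (SE 0.103, adjusted p = 6.61e-09 by limma), at least 11.9-fold. Its relative Skap1, a T cell adaptor that lies next to Hoxb1, went the other way, from 4.61, 4.65 and 4.89 in LSK to 8.25 to 9.03 over the lymphoma arrays, a rise of 3.89 (SE 0.119, adjusted p = 2.19e-08). Nfe2, an erythroid and megakaryocyte factor near HOXC, fell by 2.90 (adjusted p = 3.48e-07), and Snx10 near HOXA, on the side of Skap2, fell by 1.57 (adjusted p = 0.000115). The other rises, named after their values were seen, were Hibadh on the far flank of HOXA (0.51, adjusted p = 0.0117) and Evx2 beside HOXD (0.37, adjusted p = 0.0173, lost without lymphoma replicates 2 or 3).

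**Figure D5:**
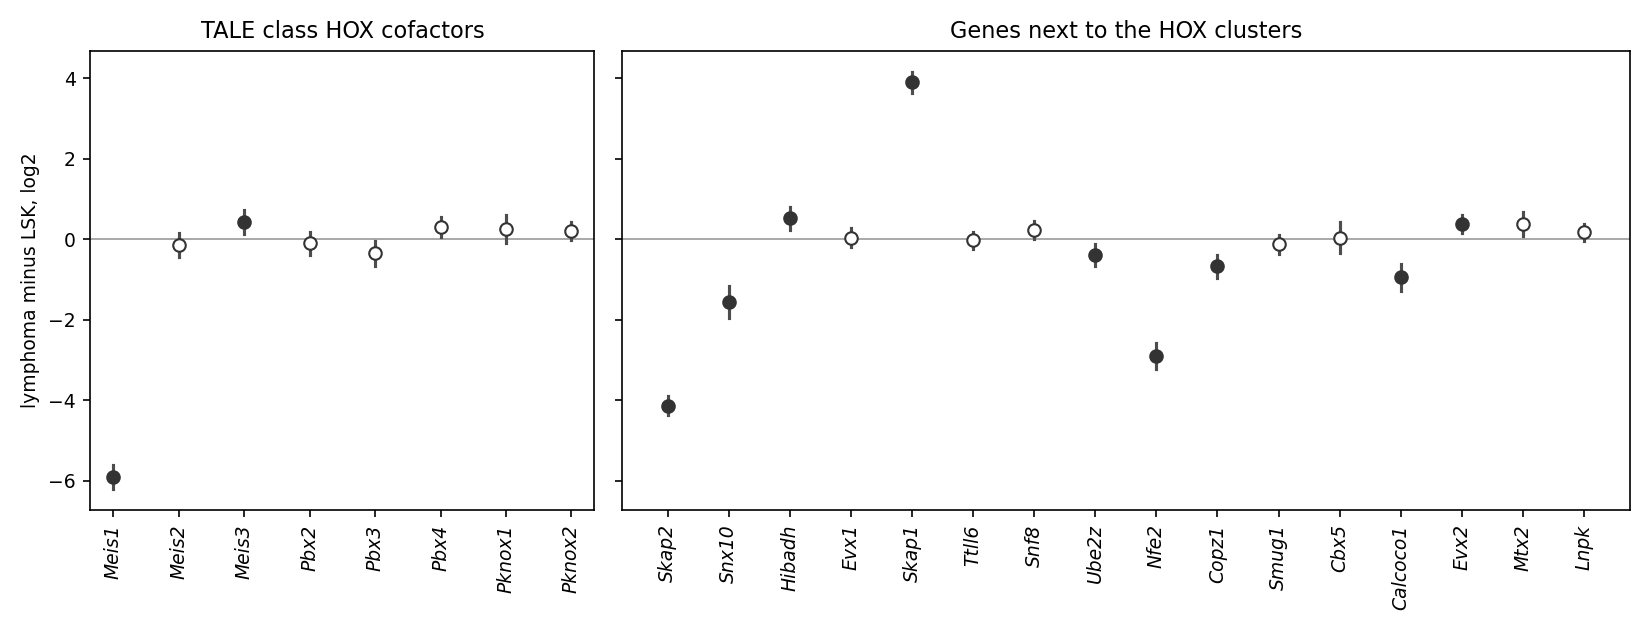
Log2 difference, lymphoma minus LSK, with 95% intervals, for 8 TALE class cofactors and 16 genes next to or near the HOX clusters, with filled points for adjusted p under 0.05. Meis1 (-5.90) and Skap2 (-4.14) lie lowest, and Skap1 (3.89) lies highest.

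The regulators of HOX loci were above background almost throughout. All 15 measured MLL complex and partner genes were above background in LSK and in every fraction. Of these, 4 fell and 1 rose (median -0.14), where 15.8% and 13.1% of all genes did. Dot1l, the H3K79 methyltransferase that MLL fusions recruit, fell by 1.46 (adjusted p = 0.000325 by limma), the elongation factor gene Aff4 by 0.76 (0.0024) and the menin gene Men1 by 0.66 (0.0143, lost without lymphoma replicates 1 or 3). Aff1 rose by 0.63 (adjusted p = 0.00358). Named after their values were seen, the H3K27 demethylase gene Kdm6a fell by 0.57 (0.0199, lost without LSK replicate 2 or any 1 lymphoma replicate), and Kmt2a, which encodes MLL itself, was at 9.91 in LSK and 9.77 in the lymphoma (-0.14, adjusted p = 0.44). Of 14 measured Polycomb genes, 13 were above background in every fraction, 2 fell and 2 rose (median 0.02). These shares, 2 of 14 each way, are near those over all genes (15.8% lower and 13.1% higher). The 4 were the H3K27 methyltransferase genes Ezh1 (-0.91, adjusted p = 0.000172 by limma) and Ezh2 (0.59, 0.00262), Pcgf2 (-0.81, 0.00258) and Phc2 (0.62, 0.00202). In DN1 Ezh2 averaged 10.51, close to its 10.39 in LSK, and in the other fractions 10.98 to 11.18. The 3 CDX genes, upstream activators of HOX genes in the embryo, were under background everywhere, and Cdx1 was called 0.37 higher (adjusted p = 0.0138, lost without lymphoma replicates 1 or 2). Of the listed noncoding RNAs of the clusters, 5 were measured, 0 were above background on all 3 arrays of a group, and 0 were called by limma in the lymphoma as a whole. Hoxaas3 passed the threshold on 2 of the 3 LSK arrays, and also on 2 DN4 arrays, 1 CLP array and 1 DN1 array. The microRNA gene Mir196a-2, under background on every array, was called higher in CLP than in LSK (1.16, adjusted p = 0.00504 by limma) and lower in DN1 than in CLP (-0.99, adjusted p = 0.000706), and it was called in the F test over the fractions. Outside the list, and looked at after its values were seen, the antisense RNA Hoxd3os1 was at 5.66 to 5.73 in LSK, above background on all 3 arrays, and above it on 14 of 15 lymphoma arrays (5.49 to 6.03). Its difference was 0.06 (adjusted p = 0.644 by limma).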

How the data were processed

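Total RNA (RNeasy Micro kit) was amplified with the WT Pico kit and hybridised to Affymetrix arrays, per the labels' protocols. The authors deposited log2 RMA signals, 1 per probe set, made with oligo per the submitters' processing notes (versions and genome build not given in the sources used here). RMA subtracts background and quantile-normalizes all arrays together, so a difference is relative to the bulk of the signals. Of 41345 probe sets, 23521 carry 1 gene symbol, 1814 several and 16010 none. The brightest single-symbol probe set over the 18 arrays stood for each of 22180 genes. For arrays, their number (3 per group) limits the precision.

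Tests were two-sided, with limma 3.58.1 (lmFit and eBayes, R 4.3.3), adjusted by Benjamini-Hochberg over all genes, threshold 0.05. Steps between fractions and the F test used 1 model of the 15 lymphoma arrays. The code was checked on simulated data. Named genes are all HOX genes above background in a group or called in any comparison, the others by range, and up to 4 called members per further list with the smallest p, and pathway genes given with values outside this rule are marked as named after their values were seen. The HOX genes and all lists were chosen with earlier results of these data known. Alternatives were 2 filters on low signals, quantile normalization, the mean of a gene's probe sets, a trended robust prior, the replicate block, all 18 arrays in 1 model or only the 2 fractions compared, leaving out each array or fraction, and other background thresholds. Testing every probe set on its own was added after seeing the data. Same-number arrays were judged correlated where the deviations of all 3 pairs correlated over 0.1. Among the comparisons made this held for DN2 with DN3 (0.139 to 0.259) and DN3 with DN4 (0.108 to 0.273), and for LSK with no fraction. No main test paired the arrays, those of these steps included, and only the alternative with the replicate block did. The labels do not state the pairing.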

Additional observations from a re-analysis of the deposited data

Results flagged for a closer look

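Probe sets with several symbols were left out of the gene tests, and 3 that carry a HOX symbol had a signal above background in LSK. The probe set shared by Mira, a noncoding RNA of the HOXA cluster, and Hoxa7 had the strongest of these signals. It was at 8.19, 7.59 and 8.35 on the LSK arrays (mean 8.04) and at 4.21, 4.61 and 5.17 (lowest, median, highest) on the 15 lymphoma arrays, with no overlap. It fell by 3.39 (SE 0.202, adjusted p = 3.95e-05 by limma over all probe sets), at least 5.59-fold, and which of the 2 transcripts it reads was not tested. The probe set shared by Hoxa3 and 5730446D14Rik had an LSK mean of 5.87 and a difference of 0.16 (adjusted p = 0.317). The probe set shared by Hoxd4 and Hoxd3 had an LSK mean of 5.57 and a difference of 0.11 (adjusted p = 0.504).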

How the results depend on the processing

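The 10 HOX genes lower in the lymphoma kept that call in every alternative that tested them, while the rises of Hoxa13 and Hoxc12 each lost the call in 11 of 17. Counts here are of genes called in either direction (12 for the lymphoma as reported), and the filters remove faint genes from the test. With genes above the array median kept, 6 HOX genes were called in the lymphoma and in DN2, DN3 and DN4 against LSK, and with the background filter 5 in each of these and 4 in CLP. All 18 arrays in 1 model gave 13 HOX genes for CLP, where the count over all genes went from 3928 to 6140. For the step from CLP to DN1, the array median filter, the background filter, quantile normalization, the trended robust prior and the replicate block gave 1 HOX gene each. Leaving out single replicates gave 10 to 14 HOX genes for the lymphoma, 5 to 8 for CLP, 7 to 12 for DN1, 9 to 10 each for DN2, DN3 and DN4, 0 to 1 for the F test and 0 to 2 for CLP to DN1. The difference of Hoxd8, never called, turned sign, running from -0.134 to 0.0566 without single replicates and reaching 0.0141 without DN1 in the mean. With the 99th percentile as background, 2 HOX genes were above it in LSK and 0 in each of CLP, DN2, DN3 and DN4, and with the array median 6 were in CLP and 3 in DN3. Testing every probe set on its own, chosen after seeing the data, called 10, 5, 8, 9, 9 and 9 HOX genes in the lymphoma, CLP, DN1, DN2, DN3 and DN4.

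Over all genes, counts moved by more than 1.5 times for CLP against LSK without LSK replicate 1 (2559), for DN1 to DN2 without DN2 replicate 2 (144) or 3 (168, from 300), for DN3 to DN4 without DN3 replicate 1 (2, from 1), and for CLP to DN1 without CLP replicate 1 (2636) or with only these fractions in the fit (541, from 1726). The replicate block gave 10 HOX genes for the lymphoma, 7, 10, 9, 9 and 10 for CLP, DN1, DN2, DN3 and DN4, and 0 for the F test, DN1 to DN2, DN2 to DN3 and DN3 to DN4. With the block, the calls of Hoxb2 in DN4 (adjusted p = 0.0536) and Hoxa10 in DN2 (0.0587) and DN3 (0.0516) were lost, those of Hoxa13 (0.078) and Hoxc12 (0.0779) in the lymphoma too, and Hoxb9 passed from CLP to DN1 (0.0418). Between LSK and a fraction 3 of 15 same-number pairs had correlated deviations over 0.1, between fractions 21 of 30, and 13 of 18 samples correlated best with their own number. Depth of signal limits the rest: 23 of 36 genes stayed under background on every array. The causes of these shifts were not tested.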
